A study of Mus with 4 samples.

Results

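Mkks, Slx4ip, 2810408A11Rik, Neurl4, BC049762 and Clk4 are 6 mouse genes that sit in 3 pairs of neighbours, with a strong TBX3 ChIP-Seq summit beside the facing ends of each pair. The 6 genes were chosen by their score in this very track, out of 21883 protein-coding genes on the 19 autosomes, X and Y, so their high scores are a description and were not tested. The study immunoprecipitated chromatin from mouse primary hepatocytes carrying the transposon construct pT2-SVNeo-EF1-eGFP-P2A-Tbx3-HA, in which an EF1 promoter drives GFP together with HA-tagged TBX3. All 4 libraries came from such cells, so both groups share the overexpression: 2 TBX3 ChIP libraries made with an anti-HA antibody, and 2 Input libraries of sheared chromatin that was not immunoprecipitated. The processed file used here is a single genome-wide track in which each value is the −log10 of a MACS2 p-value for the ChIP reads over a base against the number expected from Input, called the score here. The track has no value per library, so no replicate error is attached to its values and no difference between samples was tested. The reads of each library were not analysed here.

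TBX3 is a T-box factor best known as a repressor of transcription, and in the liver it marks the Wnt-responsive hepatocytes around the central vein. Neighbouring genes can lie so close that their ends share a stretch of regulatory DNA, and a factor bound there cannot be assigned to either gene from its position alone. Mkks, also named Bbs6, encodes a chaperonin-like protein that helps to assemble the BBSome, the complex that moves membrane proteins in cilia. Slx4ip encodes a partner of SLX4, the scaffold of nucleases that resolve branched DNA during repair. Neurl4 encodes a Neuralized-family protein of the centriole, and Clk4 encodes a kinase that phosphorylates SR proteins, the splicing factors rich in serine and arginine. 2810408A11Rik and BC049762 still carry the names of the cDNA collections in which they were found.

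In GRCm38, Mkks (gene 59030) spans chromosome 2 from 136873780 to 136891406 and Slx4ip (gene 74243) from 136891213 to 137081351, so their facing ends overlap by 194 bp. 2810408A11Rik (gene 70419) spans chromosome 11 from 69897352 to 69901039 and Neurl4 (gene 216860) from 69901727 to 69913824, which leaves a gap of 687 bp between them. BC049762 (gene 193286) spans chromosome 11 from 51253645 to 51263662 and Clk4 (gene 12750) from 51263114 to 51281770, with an overlap of 549 bp. The 3 pairs therefore differ in layout, with 2 overlapping pairs and 1 pair with a gap. The gene table used here gives both ends of a gene but no strand, so the ends are named by their coordinates, and start and 3′ end cannot be told apart.

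A region was called at each of the 3 places, that is, a stretch of at least 200 bp in which the score stayed at 5 or above and dips no longer than 30 bp were bridged. At Mkks and Slx4ip the region ran from 136891159 to 136891662 (504 bp), and the score peaked at 32.27 at base 136891532. At 2810408A11Rik and Neurl4 it ran from 69901068 to 69901693 (626 bp), and the score peaked at 29.87 at base 69901299. At BC049762 and Clk4 it ran from 51262968 to 51263315 (348 bp), and the score peaked at 28.69 at base 51263179. Among the 125 regions called with these settings the summits ranked 5, 7 and 10 by score, and the regions ranked 18, 9 and 51 by length. The median region in the track was 315 bp long with a summit score of 12.60. No other annotated gene, coding or noncoding, overlapped any of the 3 regions, and no noncoding gene lay within 10 kb of the summits.

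**Figure D1:**
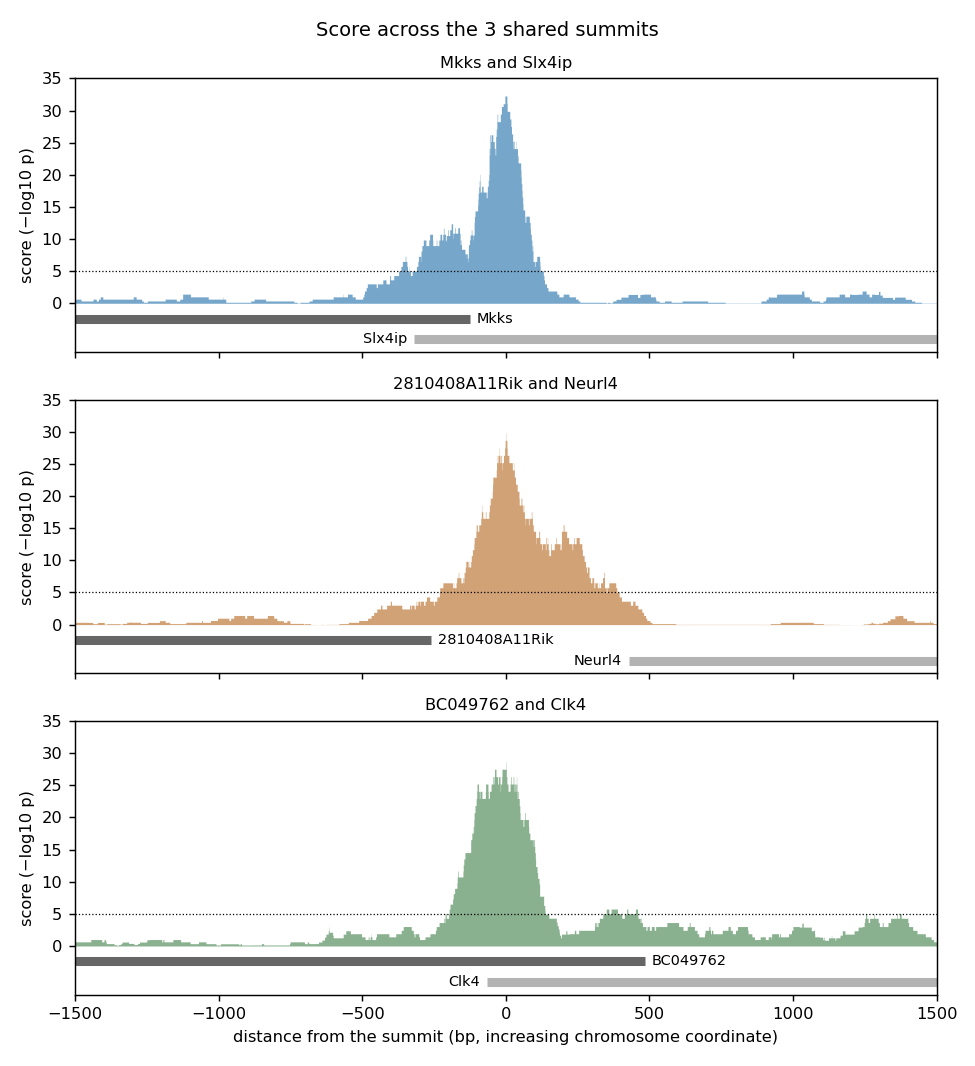
Score (−log10 p, vertical axis) against the distance in bp from the summit of each pair, with bars for the 2 genes below each profile and a dotted line at the cutoff of 5. The summit at 32.27 lies past the end of Mkks, that at 29.87 lies in the gap between 2810408A11Rik and Neurl4, and that at 28.69 lies where BC049762 and Clk4 overlap.

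The summits took up different places relative to the genes. The first lay outside Mkks, 126 bp past its higher-coordinate end, and inside Slx4ip, 319 bp from its lower-coordinate end. Of the 504 bases of this region, 450 lay in Slx4ip and 248 in Mkks, with the overlapping bases counted in both. The second lay in neither gene, 260 bp from the end of 2810408A11Rik and 428 bp from the end of Neurl4, and all 626 bases of its region lay in the gap. The third lay inside both genes, 483 bp from the end of BC049762 and 65 bp from the end of Clk4, and all 348 bases of its region lay in BC049762, of which 202 also lay in Clk4. By distance to the summit, the nearer partner was Mkks in the first pair, 2810408A11Rik in the second and Clk4 in the third. The distances to the 2 partners differed by 193 bp, 168 bp and 418 bp, so the pair with Clk4 was the most uneven. From the middle of the called region in place of the summit, the distances were 4 bp to Mkks and 197 bp to Slx4ip. They were 341 bp to 2810408A11Rik and 347 bp to Neurl4, nearly even, and 521 bp to BC049762 and 27 bp to Clk4.

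The number of ChIP reads behind each score was inferred, because a MACS2 score is fixed by a whole number of reads and an expected level. At the Mkks and Slx4ip summit the score corresponded to 38 reads (exact 95% Poisson interval 26.9 to 52.2) against 2.43 expected, a ratio of 15.6 (11 to 21.4). The 2810408A11Rik and Neurl4 summit corresponded to 36 reads (25.2 to 49.8), a ratio of 14.8 (10.4 to 20.5) to the same expected level. The BC049762 and Clk4 summit corresponded to 35 reads (24.4 to 48.7), a ratio of 14.4 (10 to 20). The 3 intervals overlap almost fully, so the order of the 3 summits was not resolved at this depth. These intervals cover counting error only. Each summit is the highest base of its region and the pairs were chosen by score, which biases the counts and ratios upward. The intervals do not allow for this choice. They are also too narrow where both mates of a read pair were counted. Whether mates were counted is not known from the track. If every read had a counted mate, dividing the pileup and the expected level by 2 would give scores of 17.18, 15.96 and 14.77 at the summits. The last of these takes 35 reads as 17, rounded down. At all 3 summits the expected level was the genome-wide one, so it was not raised by Input reads nearby.

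**Figure D2:**
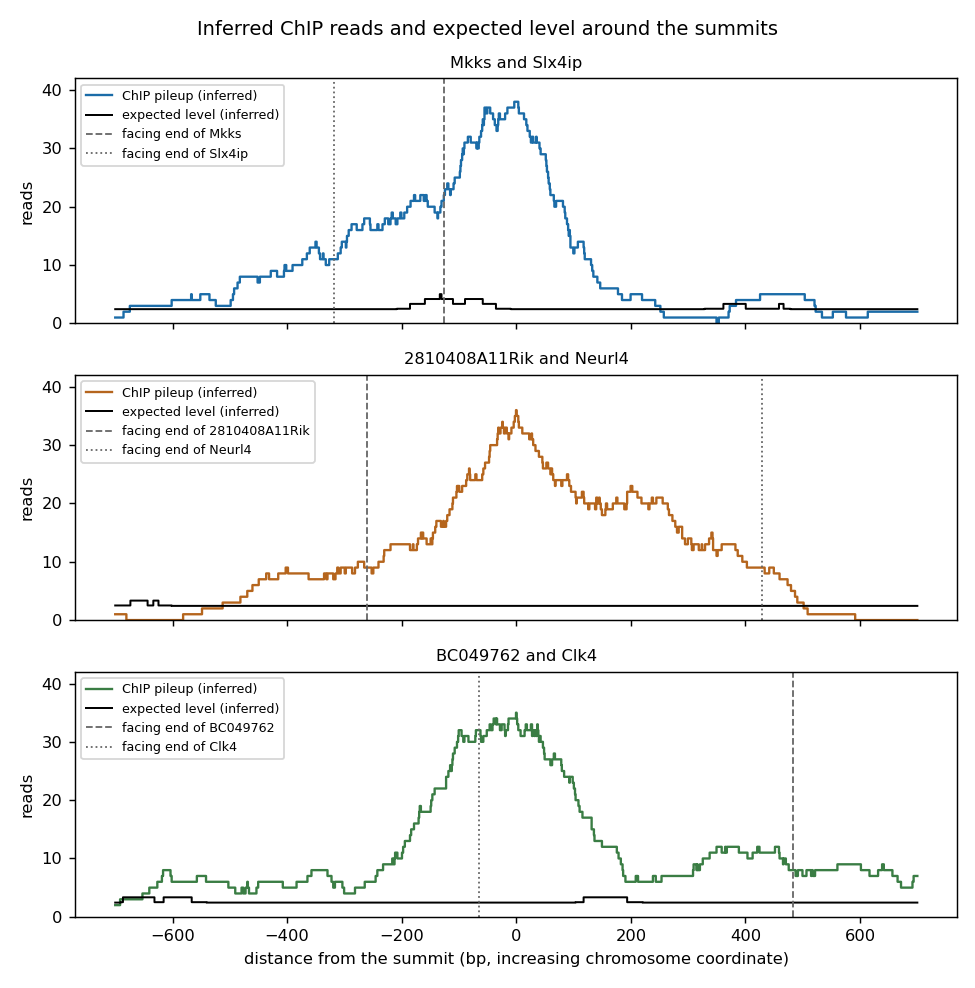
Inferred ChIP reads (coloured) and inferred expected level (black), both in reads, against the distance in bp from each summit, with vertical lines at the facing gene ends. The pileups reach 38, 36 and 35 reads, while the expected level stays between 2.43 and 5.01 within the 3 regions.

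In the inferred pileup, the reads were spread over many positions within each region. The pileup over the Mkks and Slx4ip region was built by 77 reads, that over the 2810408A11Rik and Neurl4 region by 85 reads, and that over the BC049762 and Clk4 region by 60 reads. Changes of the pileup were of 1 read in 98.5%, 97.3% and 96.8% of cases, and no change was larger than 2 reads. The inference chose the read counts that changed least along the track, which by itself favours small changes. Whether duplicate reads were removed before scoring is not stated in the sources used here. Of the rises within 500 bp of the summits, 92.8%, 92.5% and 84.3% were followed by a fall 150 bp on, the length to which reads were extended in this track.

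The summit reached both partners of a pair when each gene was given its gene-end score, here the maximum of the track over a window reaching 1 kb to each side of both ends. It was 32.27 for Mkks and Slx4ip, 29.87 for 2810408A11Rik and Neurl4, and 28.69 for BC049762 and Clk4, and both partners of a pair share 1 summit, so these are 3 measurements and not 6. The gene-end score was at least 5 for 6 of the 6 genes, as it had to be from their choice, and for 3.60% of all protein-coding genes. The median over all protein-coding genes was 2.44. In the order of all protein-coding genes, Lrig1 stood above the 6 genes at 43.58, Haus8 and Myo9b stood between the first pair and the second at 31.06, and Stip1 followed the third pair at 27.52.

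**Figure D3:**
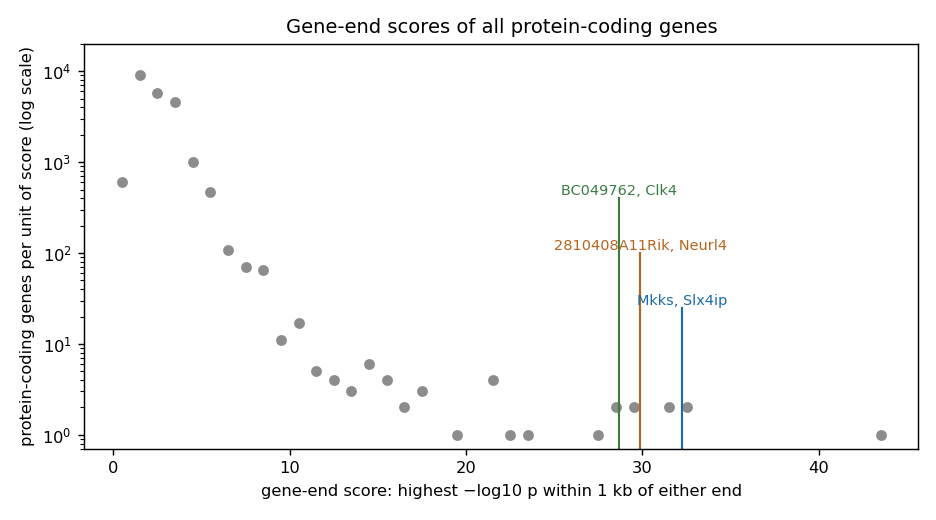
Number of protein-coding genes (log scale) per unit of gene-end score, the maximum −log10 p in the windows of 1 kb to each side of both ends, with lines at the 3 values shared by the 6 genes. The 6 genes sit at 28.69 to 32.27, and the median of all genes is 2.44.

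The score at the last base of each gene differed between the partners in 2 of the 3 pairs. At the facing end of Clk4 the score was 25.21, from 32 reads, which is 87.9% of the summit score and the highest value at an end base among all 21883 protein-coding genes. At the facing end of Mkks it was 9.87, from 22 reads, and 16 genes, Mkks included, had an end base at least as high. At the facing end of Slx4ip it was 5.01, from 11 reads. The facing ends of 2810408A11Rik and Neurl4 both stood at 3.65, from 9 reads each, although their distances to the summit were 260 and 428 bp. The facing end of BC049762 stood at 3.02, from 8 reads, the lowest of the 6. The order of these scores followed the distance to the summit except that Slx4ip, at 319 bp, stood above 2810408A11Rik, at 260 bp. The neighbours in this order from Slx4ip to BC049762 differ by at most 2 reads, which is within counting error. Over all protein-coding genes, the median of the higher end-base score was 0.36, and 0.425% of genes reached 5.01 and 1.58% reached 3.02.

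The opposite ends of the 6 genes held no such signal. The highest score within 1 kb of the opposite end was 1.42 for Mkks, 2.44 for Slx4ip, 1.90 for 2810408A11Rik, 1.90 for Neurl4, 1.27 for BC049762 and 1.84 for Clk4. None of the 6 opposite ends reached the cutoff of 5. Over all protein-coding genes only 3.60% reached it at either end, so an end below the cutoff is the common case. At the opposite end bases themselves the pileup was 1 to 3 reads.

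**Figure D4:**
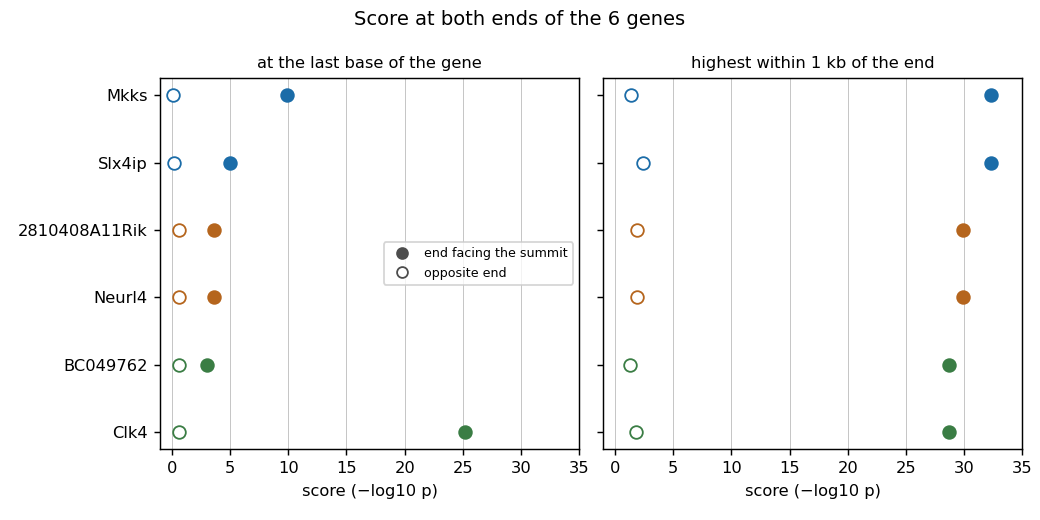
Score (−log10 p) at the last base of each gene (left) and the highest score within 1 kb of it (right), for the end facing the shared summit (filled) and the opposite end (open). At the last base, Clk4 stands at 25.21 and BC049762 at 3.02, and within 1 kb no opposite end exceeds 2.44.

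The 3 profiles differed in shape. The Mkks and Slx4ip profile fell steeply on the side of higher coordinates, where the region ended 130 bp from the summit, and stretched 373 bp to the other side. The width of its score peak at half-maximum was 156 bp. In this profile the score dipped to 6.45 at 133 bp on the lower side of the summit, 7 bp inside the end of Mkks, where the pileup was 19 reads and the expected level rose to 5.01. At the genome-wide expected level the same 19 reads would score 11.66, so the dip is seen in the score more than in the pileup. Within the region, 39.5% of bases had an expected level above the genome-wide one, against 9.48% at BC049762 and Clk4 and none of the 626 bases at 2810408A11Rik and Neurl4.

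The 2810408A11Rik and Neurl4 profile was the longest and held a second, lower maximum of 23 reads and a score of 15.53 at 201 bp on the Neurl4 side. It rose 5 reads above the pileup between the maxima, the smallest rise that was listed as a maximum, and this is within counting error. Between the 2 maxima the score did not fall below 10.74, from 18 reads. The width of its pileup at half-maximum was 393 bp, against 222 bp at Mkks and Slx4ip and 285 bp at BC049762 and Clk4. This width takes in the second maximum only by a tie, since the 18 reads between the maxima are exactly at half-maximum of the 36 reads at the summit. The centre of the reads in excess of the expected level lay 68 bp from the summit toward Neurl4, and the middle of the gap between the genes lay 84 bp from the summit in the same direction. The other 2 pairs did not share this closeness. With negative values toward lower coordinates, the centre and the middle between the facing ends lay at -89 and -222 bp at Mkks and Slx4ip. At BC049762 and Clk4 they lay at -28 and 209 bp, on opposite sides of the summit.

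The BC049762 and Clk4 profile was the shortest region at the cutoff of 5 (at a cutoff of 10 that at Mkks and Slx4ip was, at 213 bp against 285 bp) but had the widest score peak of the 3, with a score width at half-maximum of 245 bp and a median score of 19.68 within the region, against 10.74 and 12.60 in the other two. The half-maximum widths of the score in the 3 regions, 156, 190 and 245 bp, compare with a median of 184 bp over the 125 regions. The score then fell to 1.27 at 191 bp on the higher side and rose again in short runs with a highest score of 5.75, at 338 to 459 bp, just inside the end of BC049762. These runs of 66 and 47 bp, even when joined across the short dip between them, stayed below the minimum length of 200 bp, though not below the 100 bp tried as an alternative.

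A low signal went on into the body of Clk4. From 500 to 1500 bp beyond the summit on that side the mean pileup was 7.04 reads against a mean expected level of 2.51, with 3 reads at the lowest base and 11 at the highest. On the side of BC049762 the mean over the same distance was 3.14 reads, at an expected 2.72. The corresponding means were 2.66 and 2.71 reads on the 2 sides of the Mkks and Slx4ip summit, and 2.26 and 1.18 reads at 2810408A11Rik and Neurl4. On each of those other 5 sides the pileup fell to 0 or 1 read somewhere within this distance.

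Away from the summits the pileup was below the expected level on average. That level is the genome-wide one or higher, so background lies below it on average by construction, and depletion was not tested. Between 1 and 10 kb on both sides, the mean pileup was 1.83 reads around Mkks and Slx4ip, 1.61 around 2810408A11Rik and Neurl4 and 2.01 around BC049762 and Clk4. The mean expected levels there were 2.66, 2.95 and 2.84 reads. The summit pileups were 20.7, 22.4 and 17.4 times the mean pileups. In these flanks 0, 0 and 14 of 18000 bases had a score of at least 5. No other protein-coding gene had an end within 50 kb of the Mkks and Slx4ip summit, and the nearest, Snap25, which encodes a protein of synaptic vesicle fusion, lay 109104 bp away with a gene-end score of 1.42. Of the 9 other genes with an end within 50 kb of the 2810408A11Rik and Neurl4 summit, Eif5a, which encodes a translation factor, had a gene-end score of 13.56 and the other 8 scored 1.84 to 2.44. Near BC049762 and Clk4 the only 2 such genes were Gm12569 at 3.02 and Col23a1 at 1.42.

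To place the 3 pairs among like ones, all pairs of neighbouring protein-coding genes with facing ends within 1 kb of each other were taken. There were 2886 such pairs, of which 922 overlapped, and 13 of them had a called summit within 1 kb of both facing ends, which is 0.450%. The 3 pairs described here are among these 13 by their choice. The other 10 summits had scores from 7.31 to 31.06, with a median of 10.54, and ratios of pileup to expected level from 5.75 to 15.2. The highest of them was that of Haus8, an augmin subunit of the spindle, and Myo9b, an unconventional myosin, with 37 reads, 111 and 60 bp from the 2 gene ends and a region of 382 bp. It was followed by Lsm7 and Sppl2b at 17.49, 14 and 19 bp from the ends, and by Mrpl48 and Rab6a at 15.53, in a region of 650 bp. The remaining pairs were Mrpl54 and Apba3 at 11.66, Ctdnep1 and Gabarap at 10.54, Mrps18b and Ppp1r10 at 10.54, Prr11 and Ska2 at 9.66, Mob3a and Izumo4 at 8.37, Ccni and 2010109A12Rik at 8.13, and Pradc1 and Cct7 at 7.31. The 3 regions described here, at 348 to 626 bp, compare with a median of 280.5 bp for the other 10, which range from 209 to 650 bp. Over all 13 shared summits the median score was 11.66, against 12.60 for the 42 regions at other gene ends and 13.27 for the 70 regions farther from gene ends. E2f7, a cell cycle repressor on which the study centres, had its summit at 22.79, from 31 reads against 2.69 expected, in a region of 269 bp.

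**Figure D5:**
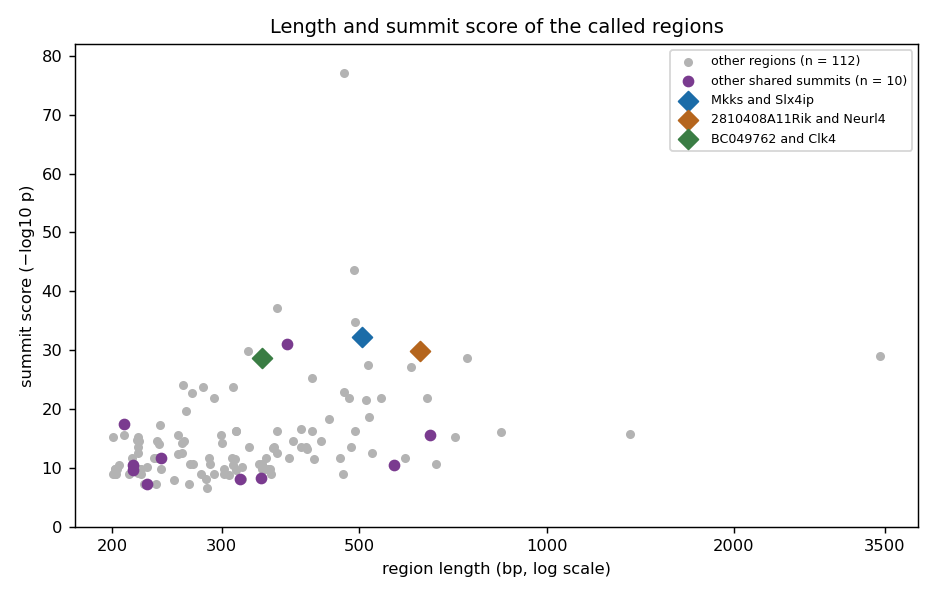
Summit score (−log10 p) against region length (bp, log scale) for the 125 called regions, with diamonds for the 3 pairs and purple points for the other 10 shared summits. The 3 pairs lie at 348 to 626 bp and 28.69 to 32.27, and 9 of the other 10 shared summits score 17.49 or less.

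The gene-end score was also taken for 6 lists of genes related to the named genes. They hold members of the same families or complexes, partners, a related chaperonin and the SR proteins. Among 11 other BBS and BBS chaperonin genes, partners of Mkks, 1 scored at least 5, Bbs4, a BBSome subunit, at 5.75, and the median was 1.90. Among 8 genes of the related CCT chaperonin 1 did, Cct7, at 7.31, which is the summit it shares with Pradc1, and the median was 2.49. None of the 3 other CLK kinases scored at least 5, with a highest of 2.37 at Clk3, and none of 9 SR splicing factors did, with a highest of 3.65 at Srsf2. None of 8 other genes of the SLX4 scaffold and its telomere partners did, with a median of 3.02 and a highest of 3.65 at Ercc1. None of 6 other genes of the Neuralized family and its centriole partners did, with a highest of 3.02 at Neurl1b. In all, 2 of these genes reached a score of 5, and the share over all protein-coding genes was 3.60%.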

How the data were processed

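Per the labels, chromatin of mouse primary hepatocytes carrying the HA-tagged TBX3 construct was sequenced in 2 TBX3 ChIP and 2 Input libraries. The deposited −log10 p-values come from MACS2, which the authors ran on reads aligned to mm10 by Bowtie2 and sorted by SAMtools. Tool versions are not given in the sources used here. Which libraries entered the track is not stated, and the depth of each library is unknown.

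The 21 main chromosomes were used (110667813 intervals), and 44 other contigs were left out. Regions and gene-end scores were computed with Python 3.11.15, numpy 2.4.6, pandas 2.3.3 and scipy 1.17.1, and plots with matplotlib 3.10.9. Gene positions came from the RefSeq table of GRCm38.p6, the assembly named mm10 in the track, without strand. Whole ChIP reads and expected levels were inferred from the score as the upper tail of a Poisson distribution. The expected level is the largest of the genome-wide level (2.43 reads) and the Input reads, scaled by 0.835, over 150, 1000 or 10000 bp. The genome-wide level was chosen to give the most whole counts their exact score in the track, 25 of 26 tried. That match is therefore no separate check of the inference. In such scores, a raised expected level lowers the score of the same pileup. The scripts were tested on a simulated track built with the same Poisson model. No test between groups was made, since the track has 1 value per base and reads were not analysed here.

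The 6 genes and the lists of related genes were chosen with earlier results of these data known. The rule for naming genes took the 6 genes, protein-coding genes with ends within 50 kb, the other pairs sharing a summit, E2f7 and list genes scoring at least 5. Lrig1, Stip1, Snap25 and the highest gene of lists without such a score were named after their values were seen. No sequences were used here, so T-box motifs were not searched.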

Additional observations from a re-analysis of the deposited data

How the results depend on the processing

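All 3 regions were called under each of the other cutoffs, minimum lengths and gap settings tried. All of these but the cutoff of 10 are looser than the main settings, so only that cutoff could have lost a region. The gene-end scores of the 6 genes were the same with windows of 500 bp and 2 kb. Each summit lay within 483 bp of both facing ends, so both windows had to hold it. With the pileup (rounded down) and the expected level divided by 2, as if every read had a counted mate, the lowest of the 3 summit scores was 14.77. The share of protein-coding genes with a gene-end score at or above the cutoff was 2.55% with windows of 500 bp, 5.19% with windows of 2 kb, 29.1% at a cutoff of 3 and 0.279% at a cutoff of 10. At the cutoff of 10 the Mkks and Slx4ip region shortened to 213 bp, the 2810408A11Rik and Neurl4 region to 393 bp and the BC049762 and Clk4 region to 285 bp, so that the shortest of the 3 was that at Mkks and Slx4ip, and they ranked 27, 7 and 15 by length among 29 regions. The track held 773 regions at a cutoff of 3 (ranks by length 21, 4 and 87, in the same order), 640 at a minimum length of 100 bp (18, 9 and 51) and 170 when dips as long as 100 bp were bridged (24, 9 and 70). The mean score within 1 kb of the end with the higher mean, in place of the maximum, ranged from 4.07 to 5.38 over the 6 genes. With 500 bp in place of 1 kb for both gene distance and summit distance, 1 of the 3 pairs qualified, since the gap of 687 bp and the overlap of 549 bp exceed that limit. In an alternative chosen after seeing the data, the genome-wide expected level gave 14.54 in place of 9.87 at the facing end of Mkks and left the other 5 facing ends as they were.

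No paired analysis was possible because scores come without any split by library. Leaving out replicates was not run for the same reason, nor were the T-box motif settings, which need sequence. Counting error limits each pileup: at 35 reads the interval runs from 24.4 to 48.7.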

Other observations

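The neighbourhoods of the 3 summits differed in how many other regions they held. The region between 2810408A11Rik and Neurl4 had 2 others within 100 kb, one 20282 bp away near the end of Eif5a, with a score of 13.56, and one shared by Ctdnep1, a nuclear envelope phosphatase, and Gabarap, an autophagy protein, at 10.54. The other 2 summits had none within that distance, the nearest lying 7924133 bp from Mkks and Slx4ip and 652937 bp from BC049762 and Clk4. Of the 125 regions in the track, 26 had another within 100 kb.

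When each gene was given the mean score within 1 kb of the end where that mean was higher, this was the facing end for all 6 genes. The genes were chosen for a strong summit beside that end. The side and the high ranks that follow therefore come from the choice and are a description only. BC049762 had the highest such mean of all protein-coding genes at 5.38, followed by Clk4 at 4.84 and 2810408A11Rik at 4.82. Neurl4 stood at 4.72, Slx4ip at 4.11 and Mkks at 4.07. The windows of both partners of a pair overlap and hold the same summit, so their ranks are not separate measurements. The window of BC049762 also reaches past its end into the body of Clk4. From 500 to 1500 bp beyond the summit on that side, the mean pileup was 7.04 reads against 2.51 expected. The mean of BC049762 thus includes signal that lies outside this gene.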
